A study of Mus musculus with 4 samples.

Results

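Dual-specificity MAP kinase phosphatases remove phosphate from the threonine and the tyrosine that switch on the MAP kinases ERK, JNK and p38. Ligation of a Toll-like receptor activates all of these kinases, and several of the phosphatases are themselves induced by that signal, so that in macrophages they are known as a delayed brake on cytokine production. They differ in their place in the cell and in the kinase they prefer. Here 10 genes of this family, Dusp1, Dusp2, Dusp4, Dusp5, Dusp6, Dusp7, Dusp8, Dusp10, Dusp14 and Dusp16, were followed through the 16 probe sets whose annotation names only that gene, out of 18193 genes and 45101 probe sets.

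The RNA came from macrophages grown from C57BL/6 bone marrow for 5 days with L929 supernatant, a source of the macrophage growth factor. Double knockout (DKO) cells lack Hes1 and Hey1, which encode transcriptional repressors downstream of Notch, and were compared with wild-type (WT) cells. The 4 groups were DKO cells given 2 ng/ml lipopolysaccharide (LPS, from Escherichia coli 0111:B4) for 3 h, untreated DKO cells, WT cells given the same LPS, and untreated WT cells. The sources used here do not state how the alleles were made or the age and sex of the mice. Each group had 1 array, so no difference below has a replicate check and no test was possible.

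Intensities are in the authors' arbitrary linear units. Values under 52.9 units, the median of all values, were raised to this floor and then logged. Where 1 of the 2 arrays compared was under the floor the difference is a bound, and where both were it is not given. Genes were called at 2-fold, a log2 difference of 1. The 27 bacterial control probe sets had medians of 4.64 to 6.87 units and reached 22.8 to 46.0. Array medians ran from 50.8 to 51.0 units on 3 arrays and stood at 59.1 on the untreated WT array, where 19618 dim probe sets exceeded the mean of the other arrays by a median of 0.24 (log2). Hes1 read 5.80 and 2.14 units on the DKO arrays with and without LPS, against 26.7 and 45.4 on the WT arrays, all under the floor. Hey1 read 10.2 and 9.17 units on the DKO arrays, against 17.3 and 57.2 on the WT arrays. All 4 Hes1 values lay under the floor, so no difference is given for Hes1. Of the Hey1 values 3 of 4 lay under it, so differences against the untreated WT array are only bounds and are not printed. The sources used here do not say where the probes of Hes1 and Hey1 lie relative to the deletions. All 8 macrophage markers, among them Adgre1 and Csf1r, were above the floor on every array. No B cell, natural killer cell, dendritic cell, mast cell or stromal marker passed it on any array, and of 6 neutrophil markers S100a8 alone did. The T cell marker Cd8a and the erythroid marker Klf1 passed it on 2 arrays each, reaching 83.5 and 53.8 units.

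Of the 10 phosphatase genes, 6 lay above the floor on all 4 arrays, namely Dusp1, Dusp2, Dusp4, Dusp6, Dusp7 and Dusp16. Dusp5 and Dusp8 were above it on 3 arrays and Dusp10 on the 2 untreated arrays. Dusp14 was under it everywhere. The arrays measure RNA from a culture, so fewer cells with a transcript and less of it per cell cannot be told apart.

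**Figure D1:**
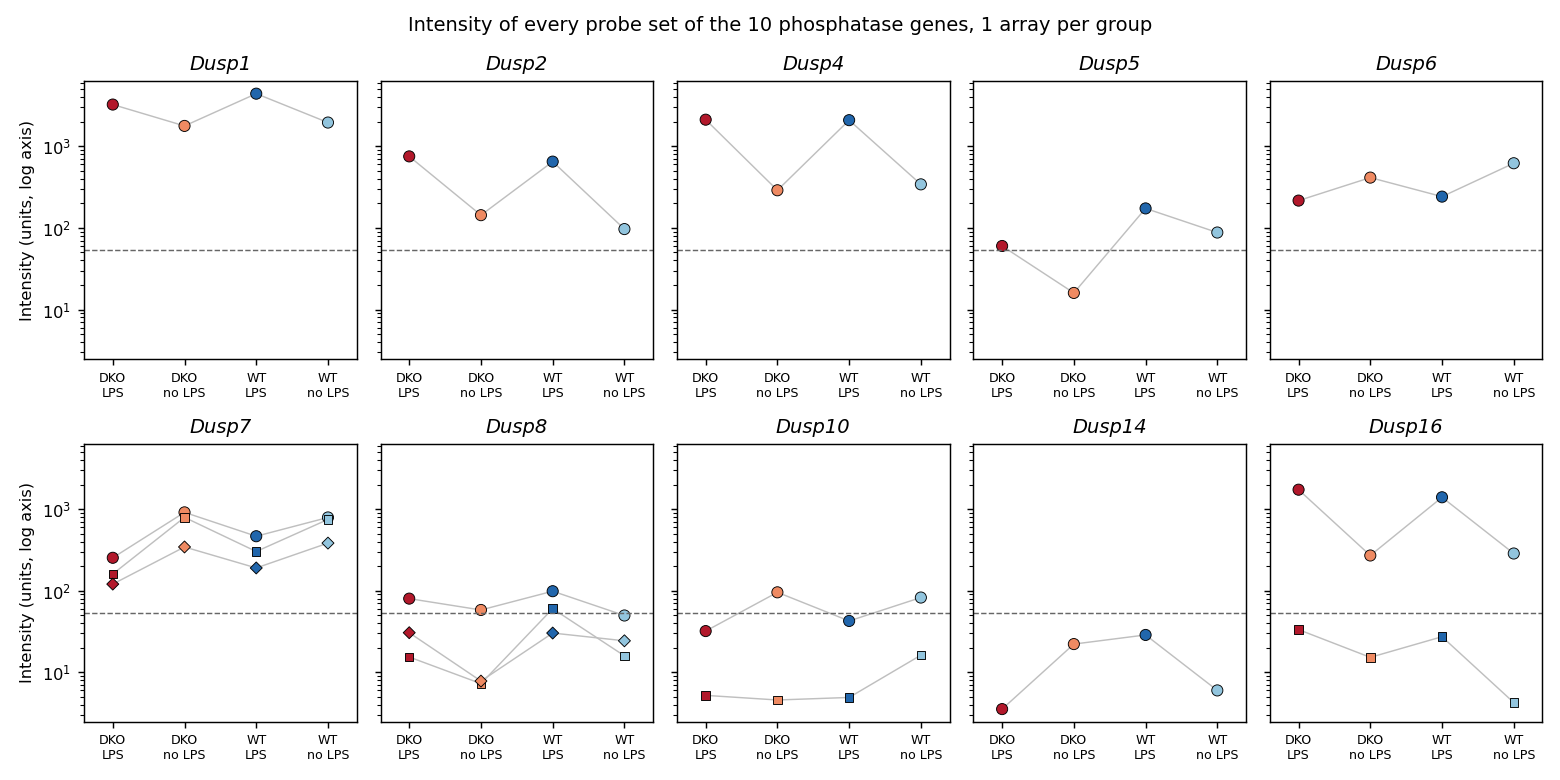
Intensity in arbitrary units on a log axis for every probe set of the 10 phosphatase genes, 1 point per array, with grey lines joining the points of 1 probe set, circles for the brightest probe set, squares and diamonds for the others, and the floor of 52.9 units dashed. Dusp2, Dusp4 and Dusp16 sit high on both LPS arrays, Dusp6 and Dusp7 sit low there, and both DKO points of Dusp5 sit below both WT points.

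The promoters of 4 members are shown because these genes stand for the patterns described below. Dusp1 and Dusp2 are nuclear phosphatases that read higher with LPS, Dusp5 was low in DKO cells, and Dusp7 read lowest in DKO cells with LPS. The sequences are from RefSeq on GRCm38.p6, from 250 bases before the start site to 50 after it, written along the gene's strand. RefSeq promoters were matched for 9 of the 10 genes, all except Dusp4. Dusp1 lies at chr17:26508423-26508722, minus strand. Dusp2 lies at chr2:127335909-127336208, plus strand. Dusp5 lies at chr19:53528895-53529194, plus strand. Dusp7 lies at chr9:106368382-106368681, plus strand. Capitals mark matches on either strand to the cAMP response element TGACGTCA, the E-box CACGTG, the class C site CACGCG and the N-box CACNAG. They also mark matches to the CArG box of serum response factor, the kappaB site of NF-kB and the TATA box TATAAA.
Dusp1: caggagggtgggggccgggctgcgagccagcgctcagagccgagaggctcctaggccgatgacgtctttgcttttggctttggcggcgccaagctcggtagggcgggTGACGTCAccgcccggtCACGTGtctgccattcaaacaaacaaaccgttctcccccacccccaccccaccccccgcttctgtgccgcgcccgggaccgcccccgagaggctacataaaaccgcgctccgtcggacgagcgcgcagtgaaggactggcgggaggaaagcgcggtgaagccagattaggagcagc
Dusp2: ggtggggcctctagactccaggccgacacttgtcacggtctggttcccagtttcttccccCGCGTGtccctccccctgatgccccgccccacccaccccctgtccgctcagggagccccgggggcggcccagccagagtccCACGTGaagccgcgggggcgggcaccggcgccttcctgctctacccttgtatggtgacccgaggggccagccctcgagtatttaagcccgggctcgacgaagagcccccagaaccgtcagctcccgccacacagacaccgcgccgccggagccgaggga
Dusp5: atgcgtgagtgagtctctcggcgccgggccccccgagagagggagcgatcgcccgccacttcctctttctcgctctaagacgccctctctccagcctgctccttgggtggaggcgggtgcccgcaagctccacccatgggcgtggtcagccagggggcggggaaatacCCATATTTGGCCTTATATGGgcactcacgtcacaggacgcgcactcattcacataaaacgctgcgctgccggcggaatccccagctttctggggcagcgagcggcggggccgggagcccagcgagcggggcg
Dusp7: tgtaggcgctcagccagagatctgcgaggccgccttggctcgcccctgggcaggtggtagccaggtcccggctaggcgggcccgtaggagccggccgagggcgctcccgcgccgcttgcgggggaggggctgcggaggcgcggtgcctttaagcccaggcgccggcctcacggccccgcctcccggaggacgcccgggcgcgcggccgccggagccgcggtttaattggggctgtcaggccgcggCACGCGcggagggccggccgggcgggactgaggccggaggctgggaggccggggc

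The Dusp1 window holds a cAMP response element whose first base is at position -143 from the start site and an E-box at -126. Dusp2 holds an E-box at -109 and, on the opposite strand, a CACGCG site at -190. Dusp5 holds 2 CArG boxes that abut, CCATATTTGG at -82 and CCTTATATGG at -72. Dusp7 holds a CACGCG site at -5. Of 32851 promoters of this length in the table, 1.79% hold TGACGTCA, 7.15% CACGTG, 9.27% CACGCG, 42.5% CACNAG, 1.63% a CArG box, 6.93% a kappaB site and 13.6% TATAAA. Among the 9 phosphatase promoters, 2 hold TGACGTCA, 2 CACGTG, 3 CACGCG, 1 CACNAG and 1 a CArG box, and none holds the kappaB site or TATAAA within these letters. CACGCG also occurs in Dusp14, TGACGTCA in Dusp8 and CACNAG in Dusp10, while Dusp6 and Dusp16 hold no match. These are matches of letters in a short window and nothing was measured on binding.

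The LPS comparisons ask which of these phosphatases respond to TLR4 signalling in each genotype. In both genotypes the transcripts of Dusp2, Dusp4 and Dusp16 were more than 4-fold higher with LPS, while those of Dusp6 and Dusp7 read lower by 1.70-fold to 3.60-fold. In DKO cells 3 of the 10 genes were called higher and 1 lower, out of 9 with an array above the floor. Over all 11240 genes with such a value 4.66% were higher and 4.77% lower. In WT cells 4 were higher and 1 lower, again of 9, against 3.36% higher and 3.41% lower over 11489 genes. The median log2 difference of these 9 genes, bounds included, was 0.46 in DKO cells and 0.98 in WT cells, beside -0.10 and -0.09 over all genes.

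The nuclear phosphatases gave both large and small LPS effects. Dusp4, which acts on ERK and JNK in the nucleus, read 2124 units with LPS and 290 without in DKO cells, and 2096 with LPS and 342 without in WT cells. Both LPS arrays were far above both untreated arrays, and LPS raised the signal 7.34-fold in DKO and 6.12-fold in WT cells. Dusp2, a nuclear phosphatase abundant in activated leukocytes, read 754 units with LPS and 143 without in DKO cells, and 650 and 96.8 in WT cells. Its LPS effect was 5.26-fold in DKO and 6.72-fold in WT cells, and in WT cells 62 of 11489 genes, Dusp2 included, were at least as high. With the floor at the 65th percentile, above both untreated values, the log2 effect in WT cells was a bound of 1.95 in place of 2.75.

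Dusp1, the phosphatase best known for limiting p38 and JNK signalling in macrophages, responded less. It read 3256 units with LPS and 1781 without in DKO cells, and 4427 and 1959 in WT cells. The gene was high on all arrays and highest on the WT array with LPS. LPS raised it 2.26-fold in WT cells, past the threshold, and it stood at 1.83-fold in DKO cells, short of it. The difference of these effects was a log2 of -0.31, and 16.8% of 9981 genes had one at least as low. No time other than 3 h was measured.

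Dusp5, a nuclear phosphatase specific for ERK, was dim throughout. It read 60.1 units with LPS and 15.96 without in DKO cells, and 174 and 87.9 in WT cells. Both DKO values lay below both WT values, and the untreated DKO value lay within the range of the bacterial controls. LPS gave 1.97-fold in WT cells and at least 1.14-fold in DKO cells, both short of a call. In WT cells it was called under each of the 3 other scalings, at log2 values of 1.20 with equal array medians, 1.21 after quantile normalization and 1.23 after cyclic loess. In DKO cells it was called with the floor at the 35th percentile, at a bound of 1.34, and with an offset of 16 units in place of the floor, at 1.25.

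The cytoplasmic ERK phosphatases read lower with LPS. Dusp6, itself a target of ERK signalling that feeds back on ERK, read 216 units with LPS and 414 without in DKO cells, and 242 and 621 in WT cells. Both LPS arrays were below both untreated arrays. It was 2.56-fold lower with LPS in WT cells and 1.91-fold lower in DKO cells, the second short of the threshold.

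Dusp7, the close relative of Dusp6, has 3 probe sets, and all were above the floor on every array. The brightest read 253 units with LPS and 911 without in DKO cells, and 465 and 789 in WT cells. A second probe set read 160 and 791 units in DKO cells, and 302 and 746 in WT cells. The dimmest read 120.2 and 343 units in DKO cells, and 190 and 383 in WT cells. In each of the 3, the lowest value was on the DKO array with LPS and the next lowest on the WT array with LPS. LPS lowered Dusp7 3.60-fold, 4.95-fold and 2.85-fold in DKO cells by these probe sets, and in WT cells the values were 1.70-fold, 2.47-fold and 2.02-fold lower. The call in WT cells therefore depends on the probe set, with the brightest short of 2-fold and the others past it. The brightest and the dimmest carry the suffix _a_at, given where probes match several transcripts of the same gene. The second carries the suffix _x_at, given where some probes also match other sequences. The 3 probe sets share a gene and an array and are not replicates.

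Among phosphatases that prefer JNK and p38, Dusp16 stood out by its LPS effect. It read 1728 units with LPS and 270 without in DKO cells, and 1395 and 285 in WT cells, so that both LPS arrays were well above both untreated ones. LPS raised it 6.41-fold in DKO and 4.89-fold in WT cells. Its other probe set read 4.24 to 33.3 units, under the floor on all arrays. The brighter probe set carries the suffix _a_at described for Dusp7, and without probe sets of this kind Dusp16 had no call in either genotype.

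Dusp8 read 79.8 units with LPS and 57.9 without in DKO cells, and 98.4 and 49.6 in WT cells. Its values lay near the floor, with 1.38-fold in DKO cells and at least 1.86-fold in WT cells, neither of them called. After cyclic loess the value in WT cells was called. A second probe set of Dusp8 passed the floor only on the WT array with LPS, at 60.1 units, and the third on none. Dusp10, which inactivates JNK and p38, read 31.9 units with LPS and 95.3 without in DKO cells, and 42.5 and 82.3 in WT cells. It was at least 1.80-fold lower with LPS in DKO cells and at least 1.55-fold lower in WT cells. With the floor at the 35th percentile the log2 difference in DKO cells was -1.58 and was called. The other Dusp10 probe set, at 4.56 to 16.2 units, and the single one of Dusp14, at 3.53 to 28.6 units, were under the floor on all arrays. Dusp14 encodes a small phosphatase without the kinase-binding domain of the others.

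**Figure D2:**
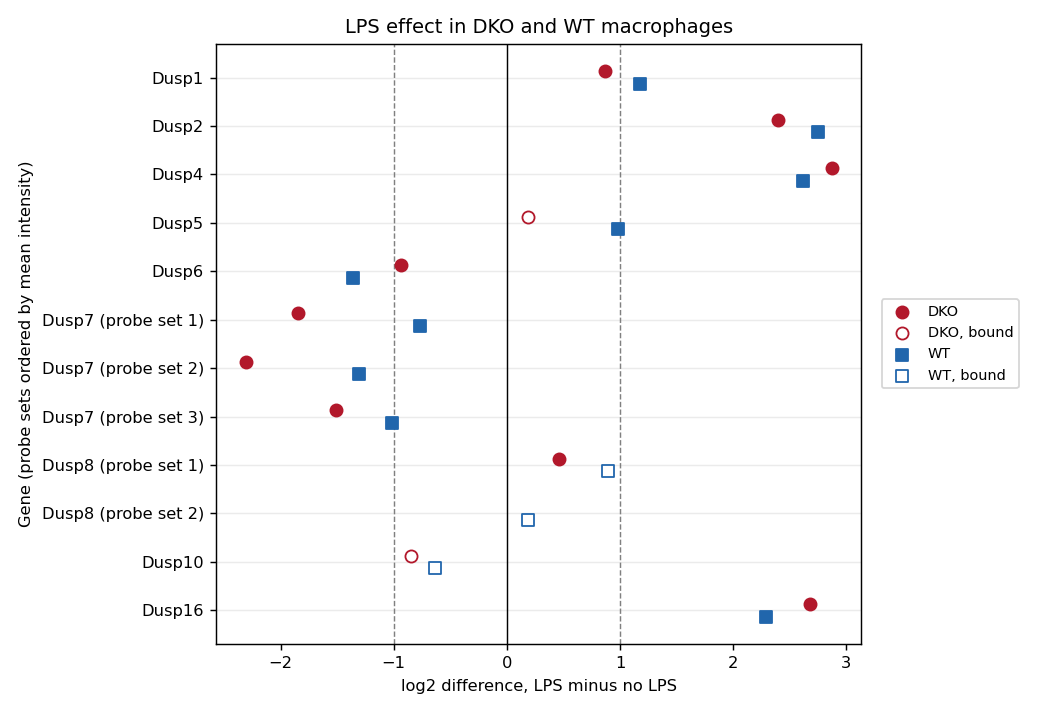
Log2 difference of LPS against no LPS for each probe set with a value, DKO cells as circles and WT cells as squares, open symbols being bounds and dashed lines the 2-fold threshold. Dusp2, Dusp4 and Dusp16 lie between 2.29 and 2.88, and the 3 probe sets of Dusp7 lie further below 0 in DKO than in WT cells.

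With LPS, setting DKO against WT cells addresses which of these feedback genes differ when Hes1 and Hey1 are missing. Dusp5 was 2.89-fold lower in DKO cells, 60.1 against 174 units, and it alone was called. That is 0 higher and 1 lower of the 10 genes, 8 of which had a value, beside 0.845% higher and 0.934% lower over 11236 genes. With this floor 16 of those genes, Dusp5 included, were at least as low. With the floor at the 35th percentile the genes called lower rose from 105 to 318, and the rank was not recomputed. The DKO value of Dusp5 is close to the floor of 52.9 units and the WT value is not. With the floor at the 65th percentile the DKO value lay under it, and the log2 difference was only bounded, at -0.05 or lower. The untreated WT array, whose dim signal is raised, does not enter this comparison. Dusp5 has 1 probe set on the array, so no second reading exists here.

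Dusp7 was short of the threshold under LPS by each of its probe sets, at 1.84-fold, 1.89-fold and 1.58-fold lower in DKO cells. The median log2 gap between the 2 brightest probe sets of a gene was 0.18 in this comparison over 4698 genes. Dusp1 was 1.36-fold lower in DKO cells with LPS, 3256 against 4427 units. The induced genes Dusp2, Dusp4 and Dusp16 read close to their WT levels, at 1.16-fold, 1.01-fold and 1.24-fold higher in DKO cells. Dusp6 and Dusp8 stood at log2 differences of -0.16 and -0.30. The 8 values had a median of -0.23, beside -0.04 over all genes.

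Without LPS none of the 10 genes was called in DKO against WT cells, where 0.466% of 11379 genes were higher and 0.984% lower. Dusp5 was at least 1.66-fold lower in DKO cells, 15.96 against 87.9 units. With the floor at the 35th percentile the DKO value still lay under it, and the log2 difference was bounded at -1.88 or lower. Over the alternative scalings, floors and choices of probe set the value for Dusp5, bounds included, ran from -1.88 to -0.57. Dusp6 had a log2 difference of -0.58, 414 against 621 units, and Dusp2 was 1.48-fold higher, 143 against 96.8 units. Over the same settings the log2 difference ran from -0.58 to -0.37 for Dusp6 and from 0.50 to 0.78 for Dusp2. The other members with a value, Dusp1, Dusp4, Dusp7, Dusp8, Dusp10 and Dusp16, had log2 differences between -0.24 and 0.21. With array medians set equal the median of all genes moved by 0.21 in this comparison, and Dusp1 and Dusp16 turned from -0.14 and -0.08 to 0.07 and 0.13. The 9 values had a median of -0.08, beside -0.02 over all genes.

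**Figure D3:**
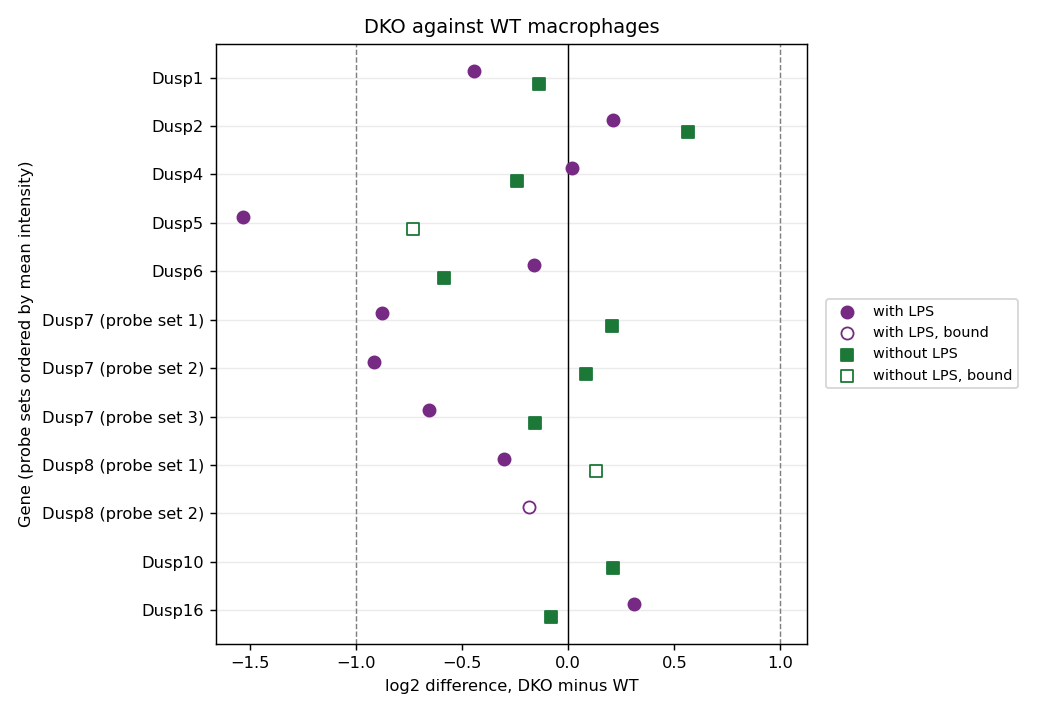
Log2 difference of DKO against WT cells for each probe set with a value, with LPS as circles and without LPS as squares, open symbols being bounds and dashed lines the 2-fold threshold. Dusp5 with LPS, at -1.53, is the only point past a threshold line, and the 3 probe sets of Dusp7 lie between -0.92 and -0.66 with LPS and near 0 without it.

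The difference of LPS effects, DKO minus WT, could be read for the 6 genes above the floor on all arrays. Dusp7 alone was called, at a log2 of -1.09 for its brightest probe set, and 52 of 9981 genes, Dusp7 included, were at least as low. Its other probe sets gave -1.001 and -0.50. Among all genes 1.31% were higher and 0.721% lower in this comparison. The other genes lay between -0.35 for Dusp2 and 0.42 for Dusp6, and their median with Dusp7 was -0.02, beside -0.05 over all genes. With array medians set equal the median of all genes moved by -0.21 and Dusp7 stood at -1.29. No test of these differences was possible with 1 array per group.

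**Figure D4:**
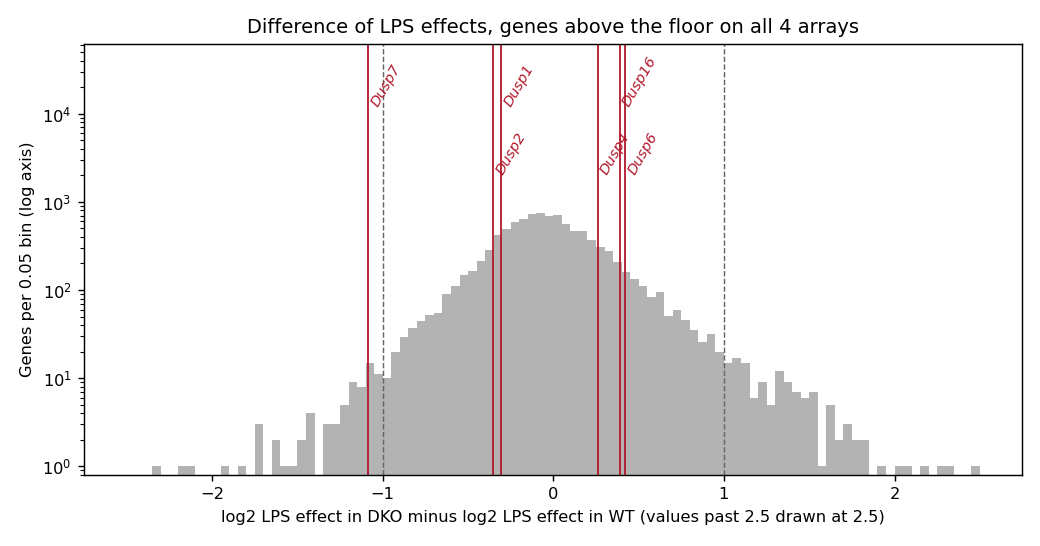
Histogram of the log2 LPS effect in DKO cells minus that in WT cells over 9981 genes, with counts on a log axis, the 6 phosphatase genes as red lines and the 2-fold threshold dashed. Dusp7 lies past the lower threshold at -1.09, and the other 5 lie between -0.35 and 0.42.

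For members above the floor on all arrays with a range of at least 2-fold, the genes nearest in pattern were found by the Euclidean distance of log2 values centred over the 4 arrays. With 4 points, 1 culture each, nearness describes these arrays alone. Nearest to Dusp7 were the RNA-binding protein gene Zfp36l2 at a distance of 0.07, the chemokine receptor gene Cxcr4 at 0.11 and Mical1 at 0.15. Zfp36l2 read 3294 units with LPS and 11650 without in DKO cells, and 6299 and 10607 in WT cells. Nearest to Dusp16 were the kinase gene Ikbke (0.09), the inflammatory caspase gene Casp4 (0.13) and the copper transporter gene Slc31a2 (0.14). Dusp4 had Lcp2 (0.15), the mitochondrial superoxide dismutase gene Sod2 (0.18) and Ralgds (0.20) as neighbours. Dusp2 was further from any gene, with the interferon regulatory factor gene Irf1 at 0.31, Slc31a2 at 0.35 and St3gal1 at 0.38. Dusp1 lay nearest to Bysl (0.17), Ubtd2 (0.17) and the nuclear IkB gene Nfkbid (0.19), and Dusp6 to Zdhhc9 (0.07), Rhbdd2 (0.09) and Tmem156 (0.13).

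Among the kinases these phosphatases act on, 11 MAP kinase genes were on the array, and 6 had a value for LPS in DKO cells and 8 in WT cells. None was called in any of the 5 comparisons. With LPS in DKO cells 4.66% of all genes were higher and 4.77% lower, so a count of 0 among so few is near the background. Mapk8, which encodes a JNK, stood at 1.52-fold with LPS in DKO and 1.72-fold in WT cells, and Mapk6 at 1.32-fold and 1.52-fold. Of 6 MAP kinase kinase genes 1 was lower with LPS in DKO cells, Map2k6, an activator of p38, at a log2 difference of -1.07, and none was called in WT cells, where Map2k6 stood at -0.47. After quantile normalization and cyclic loess Map2k6 in DKO cells was short of a call, at -0.94 and -0.93.

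Higher in the cascade, Map3k8, the kinase that links TLR4 to ERK, was 2.23-fold higher with LPS in DKO and 2.499-fold in WT cells. It was 1 of 16 genes higher in each genotype. Over all genes 4.66% were higher and 4.77% lower in DKO cells, and 3.36% and 3.41% in WT cells. Lower were Map3k1 in both (-1.36 and -1.63) and Map3k14, the kinase of the noncanonical NF-kB pathway, in DKO cells (-1.05, against -0.69 in WT cells). The Map3k14 call rests on the choice of probe set: under each of the 3 other scalings another was the brightest, with values of -0.02, 0.09 and 0.12 in DKO cells. Among 7 kinases activated by MAP kinases, Mapkapk2, the p38 target MK2, was 4.47-fold higher with LPS in DKO and 2.71-fold in WT cells. Mknk2 was lower in DKO cells at -1.51 and stood at -0.95 in WT cells. No gene of these lists was called between the genotypes, with or without LPS.

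Other inhibitors of the ERK pathway gave calls in both directions. Of 7 Sprouty and Spred genes 5 had a value with LPS in DKO and 6 in WT cells. In each genotype 2 were higher, Spred1 (4.14-fold in DKO, 4.001-fold in WT cells) and Spred2 (2.86-fold and 2.19-fold). Over all genes 4.66% were higher and 4.77% lower in DKO cells, and 3.36% and 3.41% in WT cells. Spry3 was at least 4.21-fold lower in DKO and at least 3.08-fold lower in WT cells, and Spry2 was lower in WT cells (-1.17, against -0.97 in DKO cells), a call that each of the 3 other scalings ended, at -0.99 to -0.93. Their median with LPS was 0.75 over 5 genes in DKO and 0.17 over 6 genes in WT cells. The scaffold gene Ksr1 was 2.29-fold and 3.57-fold higher. It was 1 of 9 scaffold genes in each genotype, of which 8 had a value, beside the same shares of all genes.

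Other dual-specificity phosphatases outside this set, 18 genes of which 14 lay above the floor, gave none higher with LPS. In DKO cells 3 were lower, Dusp18 (-1.28), Dusp22 (-1.26) and the slingshot cofilin phosphatase gene Ssh2 (-1.22). In WT cells none was, and these 3 stood at -0.99, -0.63 and -0.60. Over all genes 4.77% were lower in DKO and 3.41% in WT cells. The median of the 14 was -0.54 in DKO and -0.35 in WT cells, beside the medians of -0.10 and -0.09 over all genes. Of 8 tyrosine and serine phosphatase genes known to act on MAP kinases 6 had a value, and none of these was called in either genotype, beside the shares of all genes called of 4.66% and 4.77% in DKO and 3.36% and 3.41% in WT cells.

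Of 12 transcripts that ERK signalling is known to raise, 10 had a value for LPS in DKO cells and 9 in WT cells. In each genotype 3 were higher, beside 4.66% of all genes in DKO and 3.36% in WT cells. They were Egr2 (3.97-fold in DKO, 5.06-fold in WT cells), Ier3 (3.02-fold and 2.79-fold) and Phlda1 (13.6-fold and 5.71-fold). The difference of LPS effects was called for Phlda1, at 1.25, and at 1.04 to 1.19 under the other scalings. Phlda1 was 1 of 7 list genes with a value there, beside 1.31% of all genes higher. Fos was lower in DKO than in WT cells with LPS, 3617 against 7884 units. It was 1 of 10 list genes with a value there, beside 0.934% of all genes lower. Of 8 substrates and targets of the p38 and MK2 axis, Zfp36, whose product destabilises cytokine transcripts, was 2.15-fold higher in WT cells and stood at 1.94-fold in DKO cells. Zfp36l1 was lower with LPS in both genotypes (-1.42 in DKO, -1.55 in WT cells), and Zfp36l2 in DKO cells (-1.82, against -0.75 in WT cells), where the difference of LPS effects was called at -1.07. This difference was short of a call after quantile normalization and cyclic loess, at -0.96 and -0.98. Zfp36l2 was 1 of 6 list genes with a value there, beside 0.721% of all genes lower. The list gave 3 higher and 2 lower in DKO cells and 4 higher and 1 lower in WT cells, the remaining ones higher being Tnf, Il6 and Ptgs2. All 8 had a value. Over all genes 4.66% were higher and 4.77% lower in DKO cells, and 3.36% and 3.41% in WT cells.

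Among 8 genes known, like Dusp1, to respond to glucocorticoids or cAMP, the phosphodiesterase gene Pde4b was 32.5-fold higher with LPS in DKO and 15.1-fold in WT cells, and its difference of LPS effects was called at 1.11. That call was lost with equal array medians, at 0.90, and after quantile normalization, at 0.96. Tsc22d3, the glucocorticoid-induced leucine zipper gene, was lower in both (-2.35 in DKO, -1.64 in WT cells), as was Klf9 (-1.93 and -1.14), although in WT cells Klf9 was short of a call with equal array medians, at -0.92. Per1 was lower in DKO cells (-1.21, against -0.45 in WT cells). In DKO cells 7 of the list had a value, with 1 higher and 3 lower. In WT cells all 8 had one, with 1 higher and 2 lower. Over all genes 4.66% were higher and 4.77% lower in DKO cells, and 3.36% and 3.41% in WT cells. For the difference of LPS effects 1 of 7 with a value was higher, beside 1.31% of all genes. The median of the list was -0.94 in DKO and -0.42 in WT cells, beside -0.10 and -0.09 over all genes.

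**Figure D5:**
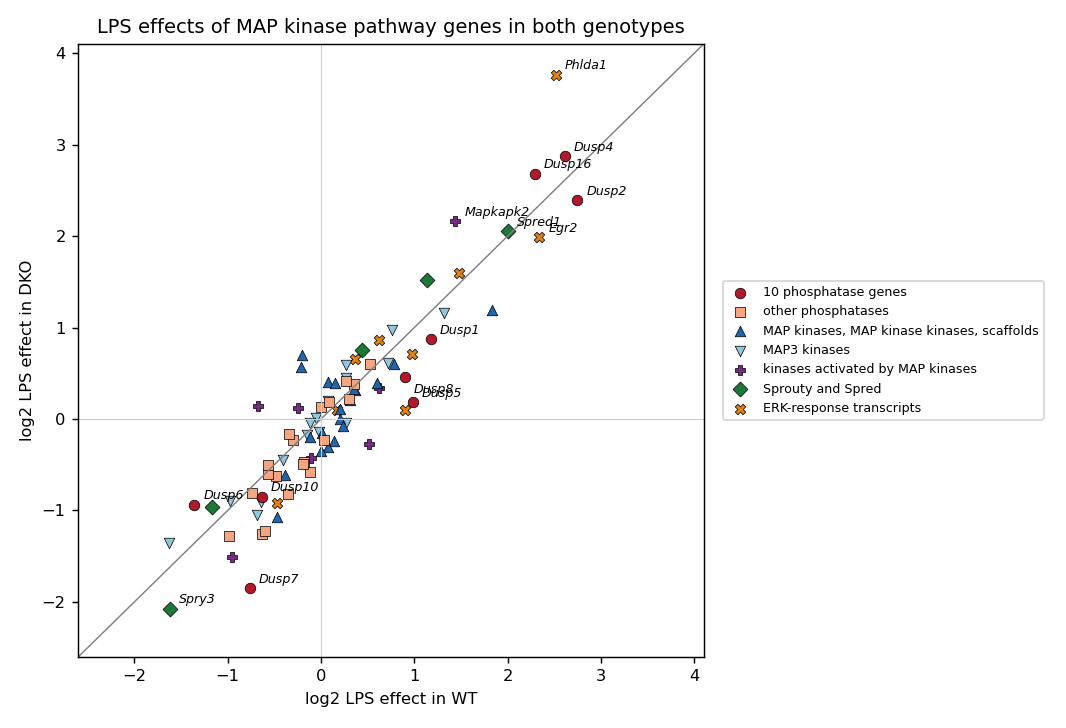
Log2 LPS effect in DKO cells on the vertical axis against that in WT cells on the horizontal axis for the phosphatases and the MAP kinase pathway lists, with the diagonal marking equal effects and genes with bounds drawn at the bound. Dusp2, Dusp4 and Dusp16 lie at the upper right near the diagonal, and Dusp7 lies below it at -1.85 in DKO and -0.76 in WT cells.

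Of 4 osteoclast markers 3 had a value, and 2 of these were lower in DKO than in WT cells with LPS, beside 0.934% of all genes lower. The protease gene Ctsk read 365 units with LPS and 514 without in DKO cells, against 1089 and 1096 in WT cells. Without LPS Ctsk was called lower at -1.09, 1 of 3 with a value, beside 0.984% of all genes. That call was lost with equal array medians, at -0.88. Dcstamp, which encodes a protein of osteoclast fusion, read 73.5 units with LPS and 18.4 without in DKO cells, against 199 and 92.6 in WT cells, so that its values lay close to those of Dusp5 on each array. Acp5, the tartrate-resistant acid phosphatase gene, had log2 differences of 0.06 with LPS and 0.29 without, and Ocstamp was under the floor on all arrays. The list summed to 823 to 943 units on the DKO arrays and 1528 to 1635 on the WT arrays, a gap that lies mostly in Ctsk. The part of these markers in the lower Dusp5 values of DKO cells was not tested.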

How the data were processed

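The values analysed were 1 intensity per probe set and array for 4 arrays, deposited by the authors as linear values. Trimming 2% of values from each end gave every array a mean of 500.0, which shows that the authors had scaled the intensities to a common mean. The sources used here do not name the software. Scaling of this kind does not fix dim signal. Per the labels' protocols, total RNA was column-purified, amplified and labelled with biotin.

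From these intensities the following was computed. Without the 64 control probe sets, the platform annotation gave 1 gene for 34945, several for 932 and none for 9160. Entrez identifiers were matched to a RefSeq table of GRCm38.p6 for current symbols only. Each gene was read by its brightest probe set on average. With 1 array per group nothing was tested. The calling step alone was tested on simulated gene values, with changes put only into genes well above the floor. The choice of probe set, the scaling and differences near the floor were not tested in this way. The number of arrays limits the precision.

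Members and lists were chosen with earlier results of these data known. The genes named were all members, list genes past 2-fold (up to 4 in each direction, otherwise the 2 largest) and the 3 nearest in pattern. The osteoclast markers, Cd8a and Klf1 were singled out after their values were seen. Alternatives were equal array medians, quantile normalization and cyclic loess (limma 3.58.1 in R 4.3.3), other floors, an offset of 16 units, other choices of probe set, and thresholds of 1.5-fold and 3-fold. Python 3.11.15 with numpy 2.4.6 and pandas 2.3.3 was used.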

Additional observations from a re-analysis of the deposited data

How the results depend on the processing

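Scaling added members to 1 count: LPS in WT cells gave 4 members higher as reported, but 5 with equal array medians and with quantile normalization (Dusp5 added) and 6 with cyclic loess (Dusp5 and Dusp8 added). A count was taken as moved only where it changed by more than 1.5-fold or to or from 0. Changes up to that, such as from 4 to 5 or 6 above, were not taken as moved. By this rule 20 of 110 counts recomputed over 11 alternatives moved. Of 309 recomputed log2 differences of members 25 moved by more than the gap between a gene's probe sets, while no called one changed sign. Of 1210 recomputed counts of the other lists 150 moved by the rule for counts. The limits are signal over background for Dusp5, Dusp8, Dusp10 and Dusp14, and 1 array per group. No paired analysis was possible because each group has 1 array.

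With LPS in DKO cells the genes higher fell to 0 on the second brightest probe set, where 1 member had a value, and those lower became 2 with the floor at the 35th percentile or an offset of 16 units (Dusp10 added), 0 without probe sets shared between transcripts, which removes Dusp7, and 3 at 1.5-fold. Leaving out shared probe sets also removes Dusp16, so that 2 genes were higher in DKO and 3 in WT cells. In WT cells the genes higher fell to 0 on the second brightest probe set, where 2 had a value, and those lower became 2 with the median of probe sets (Dusp7 added), 3 at 1.5-fold and 0 at 3-fold. For DKO against WT with LPS the genes lower became 0 with the floor at the 65th percentile, 0 on the second brightest probe set, 2 with the offset, 2 at 1.5-fold and 0 at 3-fold. Untreated, they became 1, Dusp5, with the floor at the 35th percentile, with the offset and at 1.5-fold. For the difference of LPS effects they became 2 with the offset, 0 without shared probe sets and 0 at 3-fold. Where the offset added a gene in the last cases it was Dusp14, whose values all lie under the floor.

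Over all genes, the split for LPS in WT cells became 428 higher and 255 lower with quantiles made equal, or 447 and 223 by loess. For DKO against WT untreated the same steps gave 66 and 70, and 64 and 68. Equal medians changed the split of calls to 520 higher and 194 lower for LPS in WT cells, 97 and 43 for DKO against WT untreated, and 82 and 171 for the difference of LPS effects, against 386 and 392, 53 and 112, and 131 and 72 as deposited. The cause was not tested.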
